A study of Mus musculus with 4 samples.

Results

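The 7 genes described here, *Tbx21*, *Eomes*, *Doc2g*, *Cdhr1*, *Th*, *Shisa3* and *Nppa*, were taken by name from the 33981 genes of the joined tables, and all 7 were found. They were chosen by values measured in these same libraries: *Tbx21*, *Nppa* and *Shisa3* had been named for their levels in HT + Stroke vs NT + Stroke, and the other 4 were added as genes of olfactory bulb neurons with earlier results of these libraries known. RNA was sequenced from a coronal section of the brain that included the prefrontal cortex, taken from male C57BL/6J mice of 3 to 5 months. Normotensive (NT) mice received saline under the skin and hypertensive (HT) mice received angiotensin II, 0.28 mg/kg per day, in each case for 28 days. On day 7 each mouse had either sham surgery or a photothrombotic stroke, in which light closes vessels in a patch of cortex, aimed per the labels 1.5 mm anterior to bregma (the study's methods give a point somewhat nearer to bregma), and the brain was collected on day 28. Crossing infusion and surgery gave 4 groups of 6 libraries: NT + Sham and HT + Sham, which had no stroke, and NT + Stroke and HT + Stroke. Total counts lay between 15922919 and 24865998 per library. No label says that each library came from a separate mouse, so P-values measure the spread between these libraries, which may be partly technical.

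The olfactory bulb lies just in front of the frontal cortex and receives the axons of the sensory neurons of the nose. Its output neurons, the mitral and tufted cells, are glutamatergic and carry the T-box transcription factors Tbx21 (T-bet) and Eomes (Tbr2). Around the glomeruli sit small interneurons, among them dopaminergic cells that make tyrosine hydroxylase (*Th*), and new interneurons reach the bulb throughout life as neuroblasts that migrate from the lateral ventricle. A coronal section of frontal brain therefore holds bulb tissue only if its plane or its dissection reaches it. In bulk samples such as these, fewer cells of a type and less RNA per cell cannot be told apart.

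All 7 genes are protein-coding. On GRCm38, *Tbx21* (ENSMUSG00000001444) lies on chromosome 11 from 97098071 to 97115331, *Eomes* (ENSMUSG00000032446) on chromosome 9 from 118478212 to 118486132, and *Doc2g* (ENSMUSG00000024871) on chromosome 19 from 4003321 to 4007005. *Cdhr1* (ENSMUSG00000021803) lies on chromosome 14 from 37077857 to 37098347 and *Th* (ENSMUSG00000000214) on chromosome 7 from 142892752 to 142931128. *Shisa3* (ENSMUSG00000050010) lies on chromosome 5 from 67607882 to 67623552 and *Nppa* (ENSMUSG00000041616) on chromosome 4 from 148000722 to 148002079. *Tbx21*, *Cdhr1* and *Th* are on the minus strand and the others on the plus strand. In the GENCODE annotation 4 of the genes share exonic bases with another gene, and whether reads were counted by strand is not given in the sources used here. *Nppa* shares 532 bases with the antisense gene *Gm13054*, which had 0 to 9 counts per library, and *Eomes* shares 118 bases with the antisense gene *Gm33460*, also at 0 to 9 counts. *Shisa3* shares 138 bases with *Atp8a1* on the opposite strand, which had 1670 to 2962 counts. *Doc2g* shares 1926 bases with *Gm49405* on its own strand, at 13 to 58 counts.

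Because the 7 genes rose and fell together across libraries, the 250 bases before the RefSeq start of each were read on GRCm38.p6 and searched on both strands for 5 motifs. The windows of 4 genes are shown, 2 T-box genes with the same expression pattern and different promoters, and the enzyme and the hormone gene, whose windows held the motifs found least often. Capitals mark motif matches, and each window runs 5′ to 3′ on the strand of its gene.
Tbx21, chr11:97115332-97115581, minus strand: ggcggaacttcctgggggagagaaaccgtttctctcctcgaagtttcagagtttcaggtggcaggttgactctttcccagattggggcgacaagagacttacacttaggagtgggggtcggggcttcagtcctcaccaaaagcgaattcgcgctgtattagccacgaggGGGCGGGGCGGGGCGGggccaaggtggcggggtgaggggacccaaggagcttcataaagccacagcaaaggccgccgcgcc
Eomes, chr9:118477939-118478188, plus strand: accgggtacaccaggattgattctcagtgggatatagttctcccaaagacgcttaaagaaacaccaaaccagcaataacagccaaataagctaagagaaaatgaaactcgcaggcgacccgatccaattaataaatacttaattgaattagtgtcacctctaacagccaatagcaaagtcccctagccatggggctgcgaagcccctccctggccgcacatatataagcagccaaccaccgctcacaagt
Th, chr7:142899996-142900245, minus strand: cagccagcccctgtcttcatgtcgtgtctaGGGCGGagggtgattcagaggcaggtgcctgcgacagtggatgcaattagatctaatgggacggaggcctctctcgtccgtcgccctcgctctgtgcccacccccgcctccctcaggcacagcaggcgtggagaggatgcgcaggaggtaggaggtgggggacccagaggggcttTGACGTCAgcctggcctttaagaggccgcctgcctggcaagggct
Nppa, chr4:148000472-148000721, plus strand: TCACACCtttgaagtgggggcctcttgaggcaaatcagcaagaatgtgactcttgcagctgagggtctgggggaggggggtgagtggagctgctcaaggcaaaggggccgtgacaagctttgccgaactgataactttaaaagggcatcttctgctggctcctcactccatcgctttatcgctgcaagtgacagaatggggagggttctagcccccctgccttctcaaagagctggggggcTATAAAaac

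The *Th* window held a cyclic AMP response element (TGACGTCA) 45 to 38 bases before the start, a motif present in 1.55% of the 32817 promoter windows of the same length, and a GC box (GGGCGG) 220 to 215 bases before it. GENCODE has *Th* transcripts with other starts: one start falls within this window, so its last bases are exonic there, and the longest gene model starts far upstream, at 142931128, so the whole window lies inside the GENCODE gene. The *Nppa* window held a T-box half-site (GGTGTGA, found on the opposite strand) 250 to 244 bases before the start, present in 3.33% of windows, and a TATA box (TATAAA) 9 to 4 bases before it, present in 12.4%. The *Tbx21* window held 3 GC boxes, each sharing 1 base with the next, and *Shisa3* held 2 GC boxes, a motif in 32.7% of windows. The Nr4a2 response element (AAAGGTCA) was in 1.34% of windows and in 0 of the 7. *Eomes*, *Doc2g* and *Cdhr1* held 0 matches to any of the 5 motifs, and matches of different motifs did not overlap. GC content was 60.8% for *Tbx21*, 46.4% for *Eomes*, 64.4% for *Th* and 54.4% for *Nppa*. No motif was shared by all 7 windows.

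Levels are given first as CPM, on which a gene can be compared between libraries. CPM are counts scaled to each library's total times its TMM factor, a correction for library composition of 0.929 to 1.07. Among the markers of mitral and tufted cells, *Tbx21* ran from 1.19 to 4.62 CPM in NT + Sham (median 3.09), from 3.12 to 18.6 in NT + Stroke (median 9.63), from 2.52 to 18.7 in HT + Sham (median 8.93) and from 0.757 to 9.49 in HT + Stroke (median 3.43). *Eomes*, the second T-box factor, ran from 2.91 to 11.6 CPM in NT + Sham (median 7.66), 7.23 to 45.0 in NT + Stroke (median 21.4), 9.33 to 43.4 in HT + Sham (median 19.4) and 0.956 to 24.5 in HT + Stroke (median 8.86). Both factors were lowest as a group in NT + Sham by their maximum, and lowest as single libraries in HT + Stroke. *Doc2g*, a member of the Doc2 family of proteins with C2 domains, ran from 23.9 to 47.3 CPM in NT + Sham (median 34.6), 39.9 to 128 in NT + Stroke (median 76.3), 27.0 to 152 in HT + Sham (median 78.9) and 9.90 to 101 in HT + Stroke (median 30.2). *Cdhr1*, a cadherin-related membrane protein, ran from 19.6 to 48.4 CPM in NT + Sham (median 32.4), 25.2 to 118 in NT + Stroke (median 70.6), 37.1 to 136 in HT + Sham (median 74.1) and 9.96 to 86.7 in HT + Stroke (median 32.6). The ranges of the 4 groups overlapped for all 4 of these genes.

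*Th*, the rate-limiting enzyme of dopamine synthesis, ran from 16.7 to 35.7 CPM in NT + Sham (median 27.9), 25.8 to 112 in NT + Stroke (median 61.4), 24.96 to 134 in HT + Sham (median 57.5) and 11.5 to 79.9 in HT + Stroke (median 27.3). *Shisa3*, of a family of transmembrane adaptor proteins, ran from 2.62 to 9.80 CPM in NT + Sham (median 6.43), 8.17 to 35.1 in NT + Stroke (median 18.9), 7.23 to 32.3 in HT + Sham (median 15.1) and 1.16 to 16.4 in HT + Stroke (median 10.5). *Nppa*, which encodes atrial natriuretic peptide, was the scarcest: it ran from 0.238 to 1.23 CPM in NT + Sham (median 0.612), 0.702 to 2.83 in NT + Stroke (median 1.76), 0.746 to 4.15 in HT + Sham (median 1.10) and 0.0562 to 2.12 in HT + Stroke (median 0.628). These values of *Nppa* rested on 1 to 84 counts per library, against 197 to 2716 counts for *Th*, so single libraries of *Nppa* are the least precise. In HT + Stroke libraries 1, 2 and 6 were low for all 7 genes and libraries 3, 4 and 5 were higher, and in NT + Stroke libraries 1, 4 and 5 were high and libraries 2, 3 and 6 lower, so both stroke groups were split.

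**Figure D1:**
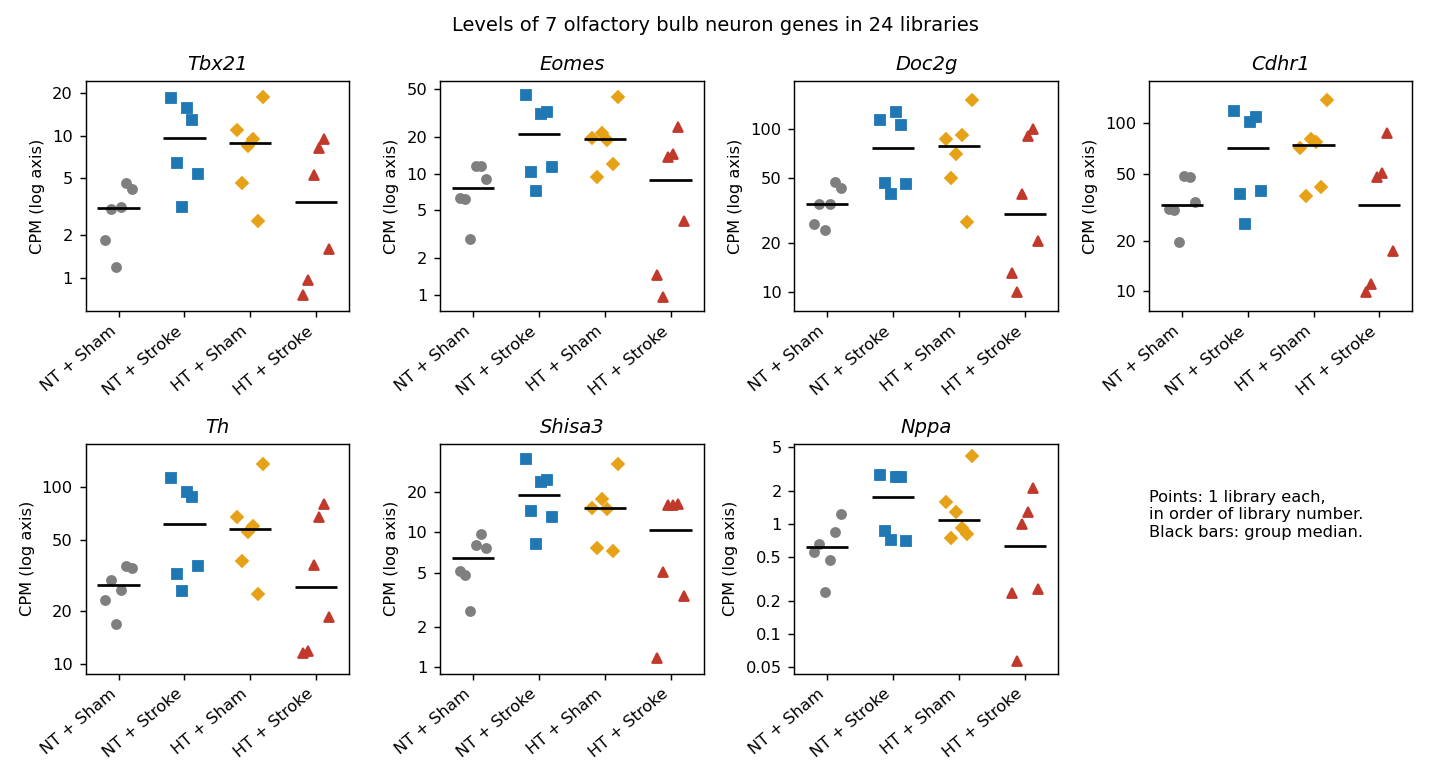
CPM of each gene (log axis) in the 24 libraries by group, 1 point per library in order of library number, with the group median as a black bar. In each panel NT + Stroke and HT + Stroke libraries fall into a higher and a lower set, and library 6 of HT + Sham stands at the top of its group.

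By group mean, 6 of the 7 genes had the order NT + Stroke, HT + Sham, HT + Stroke, NT + Sham, from highest to lowest, and *Cdhr1* had HT + Sham first. Mean *Tbx21* was 10.3 ± 6.26 CPM (SD, n = 6) in NT + Stroke, 9.12 ± 5.64 in HT + Sham, 4.38 ± 3.86 in HT + Stroke and 3.01 ± 1.33 in NT + Sham. Mean *Th* was 64.3 ± 37.3 CPM in NT + Stroke, 63.4 ± 38.0 in HT + Sham, 37.6 ± 29.7 in HT + Stroke and 27.7 ± 7.31 in NT + Sham. For none of the 7 genes did a gap between neighbours in this order exceed the larger of their SDs. Per length, as mean FPKM over the 24 libraries, *Th* (20.95) and *Doc2g* (20.4) were the most abundant, then *Cdhr1* (12.9), *Eomes* (3.81), *Shisa3* (2.80), *Tbx21* (2.77) and *Nppa* (1.43).

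Across the 24 libraries the highest CPM of a gene exceeded its lowest by 11.7-fold for *Th*, 13.7-fold for *Cdhr1*, 15.3-fold for *Doc2g*, 24.7-fold for *Tbx21*, 30.1-fold for *Shisa3* and 47.1-fold for *Eomes*. For *Nppa* the ratio was 73.8, with 1 count in the lowest library. Within groups, after fitting the 4 group means, the biological coefficient of variation lay between 0.591 (*Th*) and 0.741 (*Eomes*), against a median of 0.137 over the 17608 genes fitted. The 7 genes thus stood between the 98.5 and the 99.3 percentile of variation between libraries of a group.

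That variation was shared. The geometric mean of the 7 genes was 43.6 CPM in library 6 of HT + Sham, where each gene ranked 23 or 24 of 24, and 38.4 CPM in library 1 of NT + Stroke, where each ranked 22 to 24. At the other end it was 2.39, 2.30 and 4.48 CPM in libraries 1, 2 and 6 of HT + Stroke and 4.02 CPM in library 3 of NT + Sham. The same libraries were thus high or low for all 7 genes. Over the 21 pairs of genes, Pearson's r of log2(CPM + 1) over 24 libraries ran from 0.870 to 0.988 (median 0.946), and with group means removed from 0.824 to 0.986 (median 0.929). Inside single groups of 6 libraries, r ran from 0.469 to 0.987 in NT + Sham, 0.912 to 0.997 in NT + Stroke, 0.775 to 0.991 in HT + Sham and 0.828 to 0.994 in HT + Stroke. These correlations describe genes measured in the same libraries and chosen together, and no P is attached to them.

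In HT + Sham vs NT + Sham, which asks what angiotensin II did without stroke, all 7 genes had higher mean levels with angiotensin II and 0 of 7 passed the adjusted threshold of 0.05. The log2 fold change was 1.60 ± 0.466 (SE) for *Tbx21*, 1.41 ± 0.422 for *Eomes*, 1.20 ± 0.372 for *Doc2g*, 1.08 ± 0.342 for *Cdhr1*, 1.21 ± 0.381 for *Th*, 1.32 ± 0.416 for *Shisa3* and 1.26 ± 0.445 for *Nppa*. Adjusted P by edgeR's quasi-likelihood test lay between 0.427 (*Tbx21*) and 0.475 (*Nppa*). Of 16581 genes tested, 0% were called in either direction; 1332 had an unadjusted P under 0.05 and DESeq2 called 1. The median log2 fold change was 1.26 over the 7 genes and 0.00 over all genes. From 3 (*Nppa*) to 5 of the 6 HT + Sham libraries stood above all 6 NT + Sham libraries, and the groups overlapped for each gene. Without library 6 of HT + Sham, the library with the highest bulb and the lowest striatal levels, the values fell to between 0.66 (*Nppa*) and 1.24 (*Tbx21*), again with 0 called.

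In NT + Stroke vs NT + Sham, which asks what the stroke left in mice without angiotensin II, 5 of the 7 genes were called higher. This is read against 14.4% of the 16835 genes tested being called higher (2426 genes; 1939 were called lower). *Tbx21* rose by 1.79 ± 0.475 on the log2 scale (adjusted P = 0.0172), *Shisa3* by 1.64 ± 0.395 (0.0108) and *Nppa* by 1.39 ± 0.433 (0.0258). *Th* rose by 1.23 ± 0.405 (adjusted P = 0.0472) and *Doc2g* by 1.21 ± 0.349 (0.0275). *Eomes* (1.54 ± 0.516, adjusted P = 0.0513) and *Cdhr1* (1.04 ± 0.426, adjusted P = 0.104) missed the threshold. The 2 groups overlapped for each gene, and the NT + Stroke libraries above all NT + Sham libraries numbered 5 for *Tbx21* and *Shisa3*, 4 for *Th* and 3 for the other 4 genes.

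The number called in this comparison moved with single libraries. It fell to 2, *Tbx21* and *Shisa3*, without library 1 of NT + Sham or without library 1, 4 or 5 of NT + Stroke, and to 3 without library 2, 3 or 4 of NT + Sham. It rose to 7 without library 3 of NT + Stroke. *Tbx21* and *Shisa3* were called in all 12 fits with a library left out. Since the genes were chosen with results of these libraries known, and the comparisons share libraries, these calls are not independent evidence. *Shisa3*, *Tbx21* and *Nppa*, which had the smallest adjusted P here, were chosen on HT + Stroke vs NT + Stroke. That contrast holds the same NT + Stroke libraries, so the choice may itself have favoured these calls.

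HT + Stroke vs NT + Stroke, which asks what angiotensin II added to the stroke, is given as a description with no test, because values of this contrast were used to choose members. The log2 fold change was -1.22 ± 0.673 for *Tbx21*, -1.20 ± 0.762 for *Eomes*, -0.79 ± 0.627 for *Doc2g*, -0.94 ± 0.625 for *Cdhr1*, -0.76 ± 0.604 for *Th*, -1.01 ± 0.591 for *Shisa3* and -1.03 ± 0.634 for *Nppa*. All 6 HT + Stroke libraries lay below the NT + Stroke median for *Tbx21* and *Shisa3*, and 4 or 5 of 6 for the others. Libraries 1, 2 and 6 of HT + Stroke lay below all NT + Stroke libraries for each gene. Of 17008 genes tested, 0% were called in either direction by edgeR; 1230 had an unadjusted P under 0.05 and DESeq2 called 0.

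In HT + Stroke vs HT + Sham, which asks what the stroke left in mice given angiotensin II, all 7 genes had lower means after stroke and 0 of 7 passed the threshold, where 0.645% of the 16741 genes tested were called (108 genes). The log2 fold change was -1.02 ± 0.673 for *Tbx21* (adjusted P = 0.482), -1.05 ± 0.712 for *Eomes* (0.497), -0.77 ± 0.643 for *Doc2g* (0.597) and -0.96 ± 0.576 for *Cdhr1* (0.433). It was -0.73 ± 0.591 for *Th* (adjusted P = 0.585), -0.68 ± 0.612 for *Shisa3* (0.627) and -0.89 ± 0.648 for *Nppa* (0.525). In each gene 3 of 6 HT + Stroke libraries lay below all HT + Sham libraries. Without library 6 of HT + Sham the values moved to between -0.69 (*Eomes*) and -0.30 (*Nppa*), by more than 1.5 times for each gene but *Cdhr1* (-0.68).

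The mean stroke difference was positive for all 7 genes with saline and negative for all 7 with angiotensin II, where 0 of 7 were called. Over all genes tested, 8082 of 16835 lay above 0 with saline and 8349 of 16741 below 0 with angiotensin II. The 7 genes varied together (r of 0.824 to 0.986 with group means removed), so their shared sign is not 7 separate observations. The difference of the 2 differences, from 1 fit over the 4 groups, was -2.81 ± 0.842 on the log2 scale for *Tbx21*, -2.59 ± 0.881 for *Eomes*, -1.98 ± 0.737 for *Doc2g* and -2.01 ± 0.720 for *Cdhr1*. It was -1.96 ± 0.722 for *Th*, -2.32 ± 0.739 for *Shisa3* and -2.28 ± 0.828 for *Nppa*. No test is given for the members because this contrast holds HT + Stroke vs NT + Stroke. Over all 17608 genes 0% were called by edgeR in either direction, with 1836 at an unadjusted P under 0.05 and 16 called by DESeq2.

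**Figure D2:**
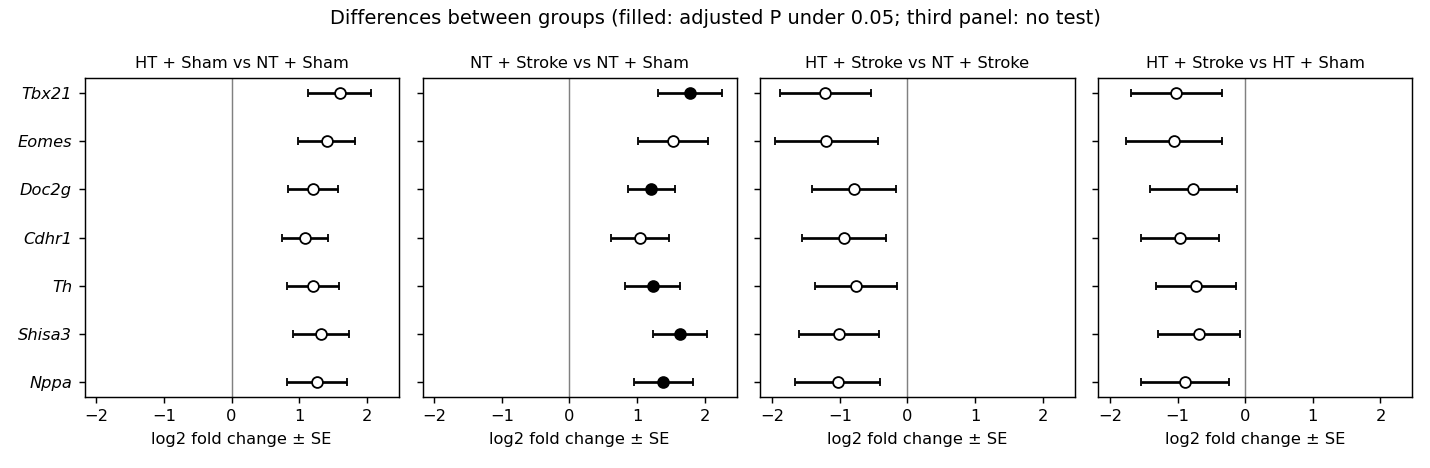
Log2 fold change ± SE of the 7 genes in 4 comparisons, 6 against 6 libraries each; filled points had an adjusted P under 0.05. Values lie right of 0 for HT + Sham and NT + Stroke against NT + Sham, where 5 of 7 are filled in the second, and left of 0 for HT + Stroke against either other group; HT + Stroke vs NT + Stroke carries no test.

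Markers of other bulb cells varied with the 7 genes. Each of the 7 followed the score of 8 bulb interneuron genes (*Sp8*, *Pax6*, *Calb2*, *Trh*, *Synpr*, *Gng4*, *Meis2* and *Etv1*), where a score is the mean log2(CPM + 1) of those listed genes that averaged 0.5 CPM or more. With group means removed, Pearson's r over the 24 libraries was 0.90 to 0.98 and Spearman's rho 0.93 to 0.97. Leaving out the 2 libraries farthest from the median score gave r of 0.91 to 0.97. The permutation P within groups was 1e-05, the smallest it can give, and 4.6e-05 after adjustment over 105 relations of 7 genes with 15 lists. Of those 105 relations, 66 by Pearson's r and 67 by Spearman's rho had an adjusted permutation P under 0.05. The genes and the 15 lists were chosen with earlier results of these libraries known. The permutation P-values of these relations, here and below, are therefore a description and not independent evidence. The relation held inside each group of 6, with r of 0.610 to 0.989 in NT + Sham, 0.947 to 0.995 in NT + Stroke, 0.9001 to 0.999 in HT + Sham and 0.876 to 0.995 in HT + Stroke.

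The interneuron score itself ran from 5.15 to 5.69 in NT + Sham, 5.36 to 6.60 in NT + Stroke, 5.50 to 6.71 in HT + Sham and 4.73 to 6.17 in HT + Stroke. Its highest values were in library 6 of HT + Sham and library 1 of NT + Stroke and its lowest in libraries 2, 1 and 6 of HT + Stroke, the libraries where the 7 genes were highest and lowest. Between groups the score differed by 0.560 in HT + Sham vs NT + Sham (exact permutation P = 0.0216, adjusted 0.0764 over 60 score tests) and by 0.522 in NT + Stroke vs NT + Sham (exact P = 0.0823, adjusted 0.181). It differed by -0.643 in HT + Stroke vs HT + Sham (exact P = 0.0628, adjusted 0.181). In NT + Stroke vs NT + Sham 4 of its 8 genes were called, all higher: *Calb2* (calretinin, 1.13, adjusted P = 0.0349), *Trh* (thyrotropin-releasing hormone, 1.18, 0.0426), *Pax6* (0.66, 0.0261) and *Meis2* (0.41, 0.0266).

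The score of genes of the olfactory nerve layer, where sensory axons enter the bulb, followed the 7 genes with r of 0.84 to 0.93 (rho 0.88 to 0.94; adjusted permutation P at most 0.000166). By single gene, r with the mean z-score of the 7 genes ran from 0.44 (*Gng13*) to 0.92 (*S100a5*). In NT + Stroke vs NT + Sham 2 of 5 were called higher, *Omp* (olfactory marker protein, 1.69, adjusted P = 0.0488) and *Prss56* (1.58, adjusted P = 0.00622). The score of migrating neuroblast genes followed with r of 0.89 to 0.95 (rho 0.90 to 0.95; adjusted permutation P at most 0.00012). By single gene, r with the mean z-score ran from 0.06 (*Sox11*) to 0.95 (*Dlx1*). Of the neuroblast genes 5 of 7 were called higher in NT + Stroke vs NT + Sham. These were *Cd24a* (0.91), *Igfbpl1* (0.90), *Sp9* (0.99), *Dlx2* (0.81) and *Sox11* (0.33), the last of which did not follow the 7 genes. The neuroblast score was 0.618 higher there (exact permutation P = 0.00216, the smallest 6 against 6 allows, adjusted 0.0325).

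Other mitral and tufted cell genes were mostly scarce: 4 of 9 (*Lhx5*, *Lhx1*, *Vgll2* and *Uncx*) had a mean under 0.5 CPM and formed no part of the score. The score of the other 5 followed the 7 genes with r of 0.81 to 0.89 over 24 libraries (rho 0.86 to 0.91; adjusted permutation P at most 0.000614), but with r of only 0.14 to 0.55 inside NT + Sham. Its members went different ways: against the mean z-score of the 7 genes r was 0.87 for *Barhl2*, 0.71 for *Lbhd2* and 0.57 for *Ebf3*, but -0.34 for *Coch* and -0.53 for *Kcng1*. Between the NT groups *Lbhd2* rose after stroke by 1.19 (adjusted P = 0.000186) and *Kcng1* fell by 0.40 on the log2 scale (adjusted P = 0.00111).

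**Figure D3:**
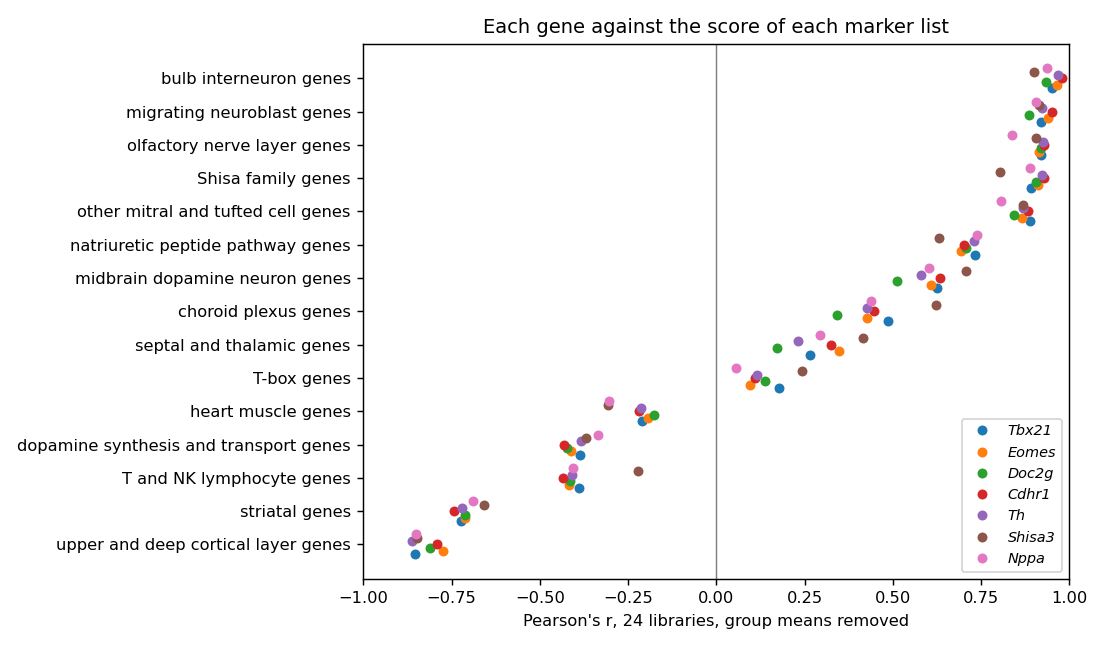
Pearson's r of each gene with the score of each of 15 marker lists over 24 libraries, group means removed, 1 point per gene. Bulb interneuron, neuroblast, olfactory nerve, Shisa family and other mitral and tufted lists lie at 0.80 or higher, and striatal and cortical lists lie between -0.86 and -0.66.

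*Th*, *Nppa*, *Shisa3* and the T-box pair belong to pathways or families with other members in the brain. Among 8 genes that make, move or bind dopamine or act in its neurons, the transporter *Slc6a3*, which clears dopamine from the synapse, followed the 7 genes closely (r = 0.86 with their mean z-score). *Slc6a3*, at a mean of only 1.24 CPM, rose by 1.27 in NT + Stroke vs NT + Sham (adjusted P = 0.0402), 1 of 8 called in that list. The decarboxylase *Ddc* (r = -0.27 with the same mean z-score), the cofactor enzyme *Gch1* (0.29) and the vesicular transporter *Slc18a2* (0.14) did not follow the 7 genes. The receptor gene *Drd2*, abundant in striatum, went the other way (-0.65). The list's score had r of -0.43 to -0.33 with the 7 genes, and 3 of these 7 relations had an adjusted permutation P under 0.05.

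Midbrain dopamine neurons also carry *Th*, and 7 of their genes were measured. *Foxa1*, *Foxa2* and *En1* had a median of 0 CPM in each group and *Pitx3* a median of at most 0.101 CPM. *Nr4a2*, which cortical neurons express too, was abundant, with group medians of 17.2 to 22.4 CPM, and had r of -0.44 with the mean z-score of the 7 genes. *Lmx1b*, at a median of 0.374 CPM in NT + Sham and 1.39 in NT + Stroke, rose by 1.75 in NT + Stroke vs NT + Sham (adjusted P = 0.00319), and with *Slc6a3* made 2 called of 3 tested of 7. *Lmx1b* itself had r of 0.20 with the 7 genes, and the score of *Slc6a3*, *Nr4a2* and *Lmx1b* had r of 0.51 to 0.71.

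For *Nppa*, a hormone of heart muscle, the heart genes *Myl7*, *Actc1* and *Nppb* had group medians of at most 0.0699 CPM. *Myl4* and *Tnnt2* were measurable but fell in NT + Stroke vs NT + Sham, by 0.65 (adjusted P = 0.00165) and by 0.54 on the log2 scale (0.00158). *Myh6*, at a mean of 1.89 CPM, had a log2 fold change of 0.49 there (adjusted P = 0.271) and r of 0.31 with the 7 genes, and the heart list had r of -0.31 to -0.18 with the 7 genes. In the natriuretic pathway *Npr1*, the receptor of atrial natriuretic peptide, followed the 7 genes (r = 0.89) and rose by 1.08 in NT + Stroke vs NT + Sham (adjusted P = 0.0129). *Furin*, a protease that cleaves prohormones, rose by 0.32 (adjusted P = 0.00612), making 2 of 5 tested. *Npr2* (r = 0.25), *Npr3* (0.07) and *Nppc* (0.08) did not follow, and the score of the pathway had r of 0.63 to 0.74 with the 7 genes. *Corin*, the convertase of the hormone's precursor, stayed at a median of at most 0.251 CPM in each group.

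*Shisa8* followed *Shisa3* and the other 6 genes (r = 0.97 with the mean z-score) and rose by 1.12 in NT + Stroke vs NT + Sham (adjusted P = 0.0175). *Shisa2* rose by 0.75 there (adjusted P = 0.00109) with r of 0.41, and *Shisa4* fell by 0.28 (0.0104). The score of the 8 other Shisa genes had r of 0.80 to 0.93 with the 7 genes, but its genes differed, down to -0.64 for *Shisa7*, -0.21 for *Shisa4* and -0.15 for *Shisa5*. The remaining T-box genes had scores with r of 0.06 to 0.24 to the 7 genes. Of these, *Tbr1*, the factor of deep cortical layers that mitral and tufted cells share, fell by 0.58 in NT + Stroke vs NT + Sham (adjusted P = 1.6e-06), while *Tbx18* (1.14), a factor of the mural cells of vessels, *Tbx15* (1.42) and *Tbx2* (0.42) rose. *Tbr1* had r of -0.66 with the 7 genes.

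*Tbx21* and *Eomes* are also factors of T and NK lymphocytes, so lymphocyte genes were measured beside them. *Ifng* had a median of 0 CPM in each group, *Gzmb* of at most 0.0964 and *Prf1* of at most 0.186. Between the NT groups *Il2rb* (2.76, adjusted P = 1.5e-05), *Trac* (1.34, 0.00148) and *Cd3e* (1.12, 0.0241) rose after stroke, 3 of 4 tested of 14. The score of *Cd4*, *Trac* and *Il2rb* had r of -0.43 to -0.22 with the 7 genes, and none of these relations had an adjusted permutation P under 0.05. *Cd4* itself, at 1.43 to 30.3 CPM, went opposite to the 7 genes (r = -0.64). In HT + Stroke vs HT + Sham the score of *Cd4*, *Trac* and *Il2rb* was 0.855 higher (exact permutation P = 0.00216, adjusted 0.0325), where the 7 genes had lower means. Of the 14 listed genes 2 were tested singly there by edgeR and 0 were called. These were *Cd4* (1.82, adjusted P = 0.0794) and *Trac* (0.66, adjusted P = 0.445). *Cd4* was far more abundant than the T cell gene *Cd3e*, which reached at most 1.09 CPM. All 10 genes of a striatal list also lay above 0 in that comparison, with a median log2 fold change of 1.29. How far this score reflects lymphocytes was not tested.

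Because a coronal section can lie farther forward or farther back, markers of regions behind the bulb were compared as well. The score of 10 striatal genes (*Drd1*, *Adora2a*, *Ppp1r1b* and others) ran from 4.37 to 6.14 in NT + Sham, 4.46 to 6.73 in NT + Stroke, 3.71 to 5.88 in HT + Sham and 5.32 to 6.83 in HT + Stroke. With group means removed it went opposite to each of the 7 genes, with r of -0.74 to -0.66 and rho of -0.78 to -0.65 (adjusted permutation P at most 0.0012 and 0.00225). Leaving out the 2 libraries farthest from the median score gave -0.75 to -0.57. Inside single groups r was -0.80 to -0.63 in NT + Stroke, -0.93 to -0.85 in HT + Sham and -0.95 to -0.70 in HT + Stroke, while in NT + Sham it ran from -0.85 to 0.01.

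Library 6 of HT + Sham, highest for the 7 genes, had the lowest striatal score of the 24 libraries (3.71). Libraries 2, 6 and 1 of HT + Stroke, among the lowest for the 7 genes, had striatal scores of 6.83, 6.71 and 6.66, which ranked 24, 22 and 21. The match was not complete: libraries 1 and 5 of NT + Stroke combined high levels of the 7 genes with striatal scores of 5.67 and 6.22. Between groups the striatal score was 1.26 higher in HT + Stroke vs HT + Sham (exact permutation P = 0.0130, adjusted 0.0599) and 0.606 higher in NT + Stroke vs NT + Sham (exact P = 0.197, adjusted 0.288). None of these striatal or interneuron score differences passed adjustment. In NT + Stroke vs NT + Sham the mean striatal and mean interneuron scores were both higher, and in HT + Stroke vs HT + Sham the mean striatal score was higher and the mean interneuron score lower. Single bulb markers went the other way: *Etv1* had a log2 fold change of -0.10 and *Gng13* of -0.18 in NT + Stroke vs NT + Sham, and *Omp* of 0.52 in HT + Stroke vs HT + Sham.

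The score of cortical layer genes went opposite to the 7 genes too (r of -0.86 to -0.77, rho of -0.87 to -0.78, adjusted permutation P at most 0.000441 and 0.000714). Its genes differed: r with the mean z-score of the 7 genes was -0.78 for *Foxp2* and -0.70 for *Fezf2*. It was only -0.33 for *Lamp5*, -0.24 for *Rorb* and 0.01 for *Cux2*. The cortical score was 0.246 lower in NT + Stroke vs NT + Sham (exact permutation P = 0.00216, adjusted 0.0325), with 5 of 8 genes called lower, among them *Fezf2* (-0.77), *Lamp5* (-0.36) and *Rorb* (-0.22). The other 3, *Foxp2* (0.33), *Bcl11b* (0.06) and *Tle4* (0.06), lay above 0 there and were not called. *Foxp2* was called higher in HT + Stroke vs HT + Sham (0.80, adjusted P = 0.0362 by edgeR). The score of septal and thalamic genes had r of only 0.17 to 0.41 with the 7 genes. Its genes differed: r with the mean z-score of the 7 genes ran from -0.21 (*Prkcd*) to 0.69 (*Zic2*), with 0.56 for *Zic1*. In NT + Stroke vs NT + Sham 4 of 6 septal and thalamic genes were called higher (*Zic2*, *Zic1*, *Prkcd* and *Tcf7l2*, by 0.48 to 1.31). Their score was 0.515 higher there (exact P = 0.00216, adjusted 0.0325). The score of choroid plexus genes had r of 0.34 to 0.62, and *Aqp1* (1.87) and *Clic6* (1.08) rose in that comparison, 2 of 4 tested. Against the mean z-score of the 7 genes r was 0.85 for *Aqp1* but -0.59 for *Clic6*. Whether the plane of the section accounts for any of the differences in the 7 genes was not tested.

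**Figure D4:**
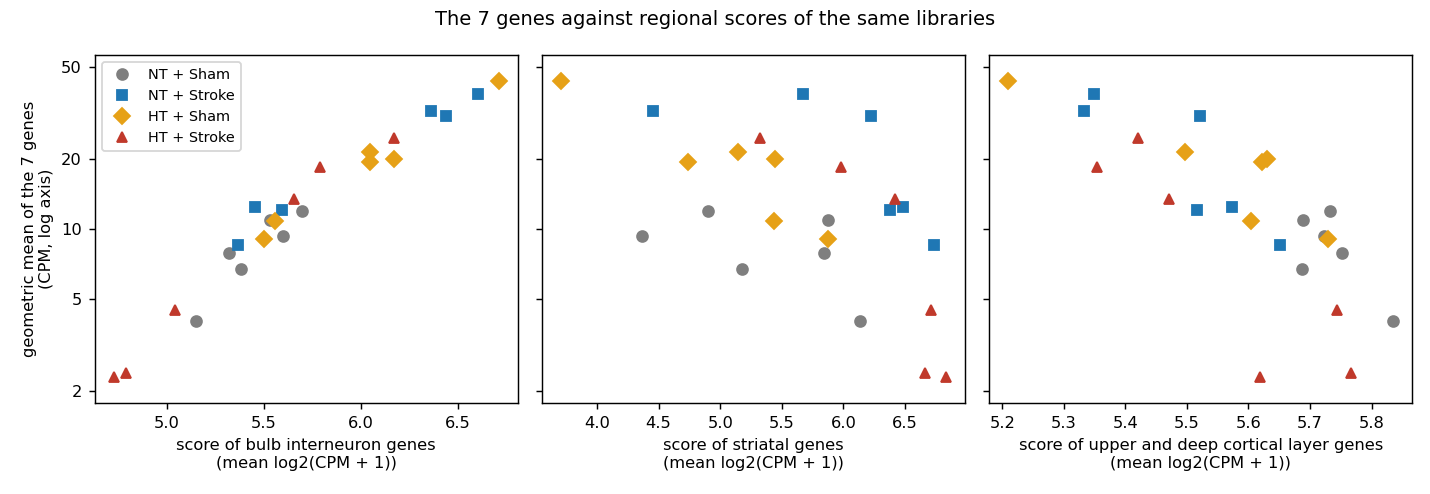
Geometric mean CPM of the 7 genes (log axis) in the 24 libraries against the scores, mean log2(CPM + 1), of bulb interneuron, striatal and cortical layer genes; colours give the group. Points rise along the bulb score in one band over all 4 groups and fall, with more scatter, along the striatal and cortical scores.

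Adding a regional score to the model as a covariate gives the difference between groups at equal score. With the striatal score, all 7 genes were called in NT + Stroke vs NT + Sham, with log2 fold changes of 1.42 to 2.10, against 5 without it. Over all genes 25.5% were called in either direction in that fit and 25.9% without the score. In HT + Sham vs NT + Sham the values were 0.81 to 1.21 and 0 were called. In HT + Stroke vs HT + Sham the sign turned for all 7 genes, to between 0.32 (*Cdhr1*) and 0.84 (*Doc2g*), with adjusted P of 0.33 to 0.82. With the score of the other mitral and tufted cell genes in the model, values shrank to between -0.06 (*Nppa*) and 0.33 (*Eomes*) in HT + Sham vs NT + Sham and to between -0.01 (*Cdhr1*) and 0.85 (*Shisa3*) in NT + Stroke vs NT + Sham, where 0 of 7 were then called and 19.3% of all genes were called in either direction. In HT + Stroke vs HT + Sham they were -0.31 to -0.80.

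**Figure D5:**
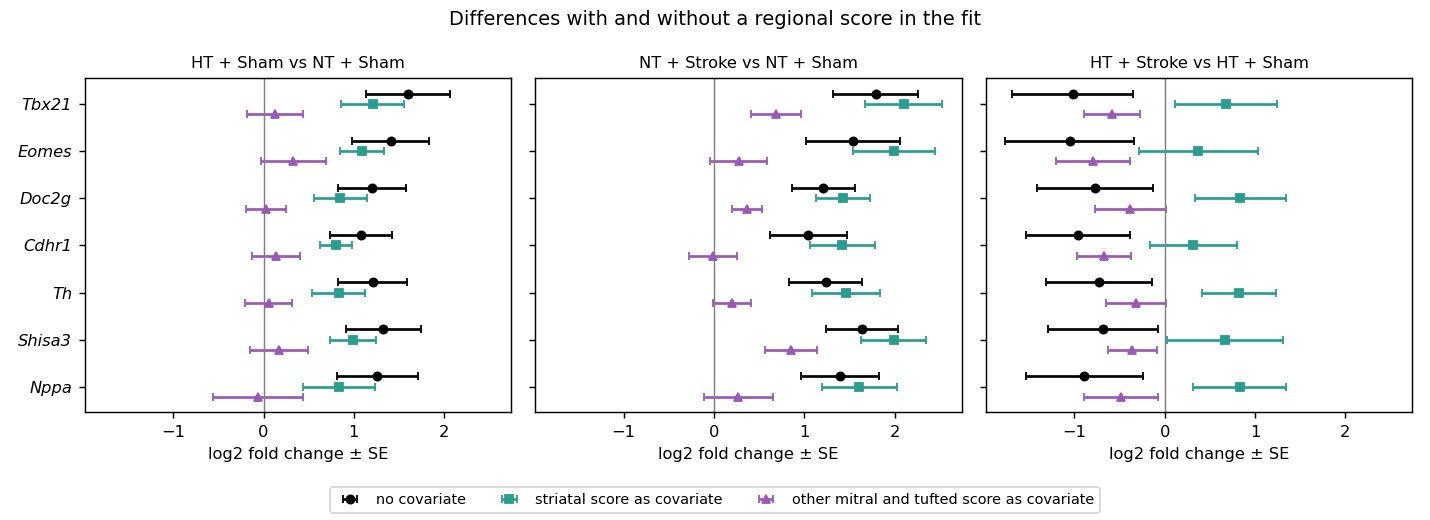
Log2 fold change ± SE of the 7 genes with no covariate, with the striatal score and with the score of other mitral and tufted cell genes in the fit, in 3 comparisons. The striatal score moves HT + Stroke vs HT + Sham from below to above 0 and leaves the values of the others positive, and the mitral and tufted score moves values in each panel towards 0.

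Of 17055 other genes that averaged 0.5 CPM or more, 56 had r over 0.9 with the mean z-score of the 7 genes over 24 libraries, group means removed, and 325 had r under -0.7. The 10 most alike were *Calb2* (r = 0.986), *Ms4a15* (0.984), *Ush1g* (0.982), *Lgr6* (0.982), *Sp7* (0.974), *Gng4* (0.973), *Ablim3* (0.969), *Trh* (0.968), *Ppm1j* (0.968) and *Shisa8* (0.968). *Calb2* ran from 28.9 to 296 CPM over the 24 libraries and *Ms4a15* from 1.51 to 50.9 CPM. The 5 most opposite were *Ptpn5* (-0.8997), which encodes a striatum-enriched phosphatase, *St8sia3* (-0.890), *Rasgef1a* (-0.879), *Kcnk2* (-0.877) and *Ngef* (-0.877). *Ptpn5* ran over a narrower range, from 150 to 344 CPM.

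What remained once the shared variation was taken out was smaller than the variation of the levels. The relative level of a gene, its log2(CPM + 0.05) minus the mean of the other 6, had an SD over libraries of 0.28 (*Th*) to 0.46 (*Shisa3*), against 0.98 to 1.39 for the levels themselves. Between NT + Stroke and NT + Sham the relative level differed by 0.46 for *Tbx21* (exact permutation P = 0.00866, adjusted 0.0909) and by -0.47 for *Cdhr1* (exact permutation P = 0.00866, adjusted 0.0909). It differed by 0.40 for *Shisa3* (exact permutation P = 0.0303, adjusted 0.193) and by -0.25 for *Th* (exact permutation P = 0.0368, adjusted 0.193). Of 21 such tests, which were chosen after the data were seen, 4 had an unadjusted P under 0.05 and 0 an adjusted P under 0.05. Library 2 of HT + Stroke kept 5.06 CPM of *Shisa3* where *Eomes* was at 0.956 CPM, which gave *Shisa3* its highest relative level, 1.16. Relative levels spanned 2.39 log2 units for *Shisa3*, 2.04 for *Eomes* and 1.73 for *Nppa*, and 1.01 to 1.13 for the other genes.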

How the data were processed

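Poly(A) RNA was sequenced on an Illumina HiSeq platform. The submitters' processing notes name featureCounts 1.5.0-p3 and DESeq2 1.20.0; the genome build is not given in the sources used here, and coordinates in the tables match GRCm38. The authors deposited whole-number read counts and FPKM (fragments scaled to gene length and library size) in 4 tables, 1 per comparison, which were joined by gene ID with 0 for genes a table does not list. Columns repeated between tables (48 compared) were identical. The authors' fold changes and P-values, 48 normalized-count columns and 8 group-mean columns were not used.

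Counts were tested with edgeR 4.0.16 (R 4.3.3; filterByExpr with a minimum count of 10 and total of 15, TMM, quasi-likelihood test) on the groups compared. P was adjusted by Benjamini-Hochberg over every gene in the fit, with a threshold of 0.05, and the fits were tested on simulated data. Alternatives were DESeq2 1.42.0, limma 3.58.1 on log2(FPKM + 1) and log2(FPKM + 0.1), other scalings, all genes with at least 1 count, all groups in one fit, a replicate block, 2 score covariates, and each library left out. Correlations used 100000 permutations within groups (SciPy 1.17.1). Promoter windows came from RefSeq (GRCm38.p6), with all 7 genes matched.

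The members and the 15 marker lists were chosen with earlier results of these data known. Named genes are the members, up to 4 list genes per comparison past the threshold, and the 10 most and 5 least alike by correlation; other list genes were named after their values were seen.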

Additional observations from a re-analysis of the deposited data

Results flagged for a closer look

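In HT + Sham, library 6 stood far above the other 5 libraries for *Eomes* (43.4 CPM, with 0.63 of the group's range between it and the next library) and for *Nppa* (4.15 CPM, 0.751 of the range). Of 28 groups of 6 libraries examined, 4 for each gene, these 2 were set apart this way, and chance alone does so for about 1 in 20. The same library had the lowest striatal score of the 24, and the part of that in the 2 values was not tested.

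For *Shisa3* the angiotensin II difference pointed opposite ways without and with stroke. The log2 fold change was 1.32 in HT + Sham vs NT + Sham, with 6 of 6 HT + Sham libraries above the NT + Sham median, and -1.01 in HT + Stroke vs NT + Stroke, with 6 of 6 HT + Stroke libraries below the NT + Stroke median. The difference of the 2 contrasts was -2.32 ± 0.739, given as a description with no test because *Shisa3* was chosen on the second. The signs of the 2 contrasts were opposite for all 7 genes, which varied together. Of the 7, *Shisa3* alone had all 6 libraries on one side in both. Its choice on the second contrast may have favoured that, and how many other genes had this pattern was not counted.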

How the results depend on the processing

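In NT + Stroke vs NT + Sham, 5 members were called, where 25.9% of all genes tested were called in either direction; the share of all genes follows each count. The number was 3 with all genes of at least 1 count kept (13.1%), 3 with limma on log2(FPKM + 1) (17.4%), 3 with limma on log2(FPKM + 0.1) (17.6%), 2 with all 4 groups in one fit (21.4%) and 0 with the score of other mitral and tufted cell genes as a covariate (19.3%). It was 6 with upper-quartile scaling (25%) and 5 with no scaling beyond library size (23.8%). DESeq2 called 6 members and 4857 genes, 14.8% of those with at least 1 count. The number of members was 7 with the striatal score as a covariate (25.5%) and 2 to 7 with 1 library left out (20.8% to 24.8%). In HT + Sham vs NT + Sham and HT + Stroke vs HT + Sham, 0 members were called under each alternative run. Directions turned in 9 of 847 recomputed values. With the striatal score in HT + Stroke vs HT + Sham they were 0.68 for *Tbx21*, 0.37 for *Eomes*, 0.84 for *Doc2g*, 0.32 for *Cdhr1*, 0.82 for *Th*, 0.67 for *Shisa3* and 0.83 for *Nppa*. With the mitral and tufted score they were -0.062 for *Nppa* in HT + Sham vs NT + Sham and -0.011 for *Cdhr1* in NT + Stroke vs NT + Sham. The cause was not tested.

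Over all genes, calls in HT + Stroke vs HT + Sham went from 108 to 890 with DESeq2, 1125 with all 4 groups in one fit and 3 with the striatal score. Libraries carry the numbers 1 to 6 in each group, and same-numbered libraries deviated together only in part: r was -0.52 to 0.41 and over 0.1 in 10 of 24 pairs, among them number 2 in all 4 comparisons. Since not every pair was over 0.1, the numbers were not taken as pairs. With a replicate block 4 members were called in NT + Stroke vs NT + Sham, where 27.5% of all genes were called in either direction. Calls over all genes in HT + Stroke vs HT + Sham then numbered 46. Depth limits *Nppa* most, at 1 to 84 counts.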
